A study of Homo sapiens with 8 samples.

Results

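The comparison described here is AIRE induction in cells that were also given etoposide: 2 DoxEtop libraries against 2 Etop libraries, out of 8 FAIRE-seq libraries in all. The members are the 4 libraries that received etoposide, taken by their labels, and every one of the 256141 genomic windows of the deposited count table was used. All cells were AIRE-Tet, a single line derived from Tet-On Advanced HEK293 human embryonic kidney cells, in which doxycycline switches on human AIRE. Etop cells were uninduced and received 2 µM etoposide for 24 h. DoxEtop cells received 1.5 µM doxycycline, and the same dose of etoposide for 24 h after 24 h of induction. Control cells were untreated and Dox cells received 1.5 µM doxycycline alone, and these 4 libraries serve as a reference at the same windows. Each group had 2 libraries that the labels call independent biological replicates, each from an equal number of formaldehyde-fixed cells. The comparison asks where chromatin openness differs when AIRE is induced in cells under etoposide. Doxycycline without an AIRE transgene was not analysed here, so the drug and AIRE cannot be told apart.

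AIRE, the autoimmune regulator, is best known from the thymus, where it turns on many tissue-restricted genes so that developing T cells meet the body's own proteins. It has been reported to act with topoisomerases and DNA-damage proteins. Etoposide traps topoisomerase II on DNA after the enzyme has cut both strands, which leaves DNA breaks. FAIRE-seq recovers the DNA that is poorly crosslinked to protein after formaldehyde fixation, which is enriched for open, nucleosome-depleted chromatin such as active promoters and enhancers. A lower count at a window therefore reads as less recovered DNA there, relative to the rest of the table.

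The table divides parts of the genome (hg19 build) into windows of 150 bp, a new one every 50 bp. Joining windows across gaps of up to 100 bp gave 35741 regions, and the median region was 350 bp wide. The column totals were 7134106 and 4568818 in Etop and 5305079 and 5034832 in DoxEtop, and 4489871 to 8275911 in the other 4 libraries. Levels are given as counts-per-million (CPM), scaled to the total of the column. Over all windows, log2 CPM of the 2 Etop libraries correlated with r = 0.335, less than Etop replicate 1 with either Control library (0.341 and 0.411) and less than Etop replicate 2 with either Control library (0.448 and 0.440). The 2 DoxEtop libraries correlated with r = 0.513, and each of them correlated with the Dox libraries at 0.487 to 0.537 and with the Etop libraries at 0.028 to 0.272. These correlations are across windows, which overlap and are not independent. By this measure each Etop library was less like the other than like untreated cells. No gene or chromosome band was assigned, because no hg19 annotation was used here, and neither AIRE itself nor kidney markers were checked. Positions are therefore given by chromosome and coordinate.

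More regions were lower than higher with induction. In edgeR's quasi-likelihood test with Benjamini-Hochberg adjustment at 0.05, 1773 regions were lower in DoxEtop than in Etop, which is 4.96% of all regions tested, and 243 were higher, which is 0.68%, or 5.64% in either direction. By single window, 5692 were lower (2.22% of all windows) and 1240 were higher (0.484%). The median log2 fold change of called regions, taken at the window with the smallest p, was -2.55 for losses, with quartiles of -3.04 and -2.24, and 2.24 for gains, with quartiles of 1.98 and 2.54. At that window, 1608 of the losses (90.7%) exceeded 4-fold and 472 (26.6%) exceeded 8-fold, against 177 (72.8%) and 13 (5.35%) of the gains. That window was chosen for its p, so these folds do not describe whole regions. Averaged over all windows of a region, losses had medians of 5.85 and 4.74 CPM in Etop and 1.32 and 1.80 CPM in DoxEtop. Gains had 2.03 and 2.45 CPM in Etop and 5.02 and 4.89 CPM in DoxEtop. Every called region exceeded 2-fold at its best window, so smaller changes are not represented among the calls. The number of calls rested on single libraries. Without DoxEtop replicate 1, 2 regions and 17 windows were called, all lower. Without Etop replicate 1, 426 regions (416 lower) and 1339 windows (1244 lower) were called. Without Etop replicate 2, 4624 regions (2979 lower) and 15688 windows (9401 lower, or 59.9%) were called. The share of losses among called windows, 82.1%, was 76.3% in windows at or above the median level, 91.4% by DESeq2 and 56.9% among the 72 windows called by limma-voom. Every window of the table held at least 111 counts summed over the 8 libraries. Control had totals of 8275911 and 6787276 against 5169600 and 4489871 in Dox, and Etop summed to 11702924 against 10339911 in DoxEtop. A window nearly empty in DoxEtop could reach this sum through the other libraries. The part of this minimum in the excess of losses was not tested.

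The levels behind these calls were low on one side in both directions. At the window with the smallest p, regions called lower had a median of 6.73 and 5.03 CPM in the Etop libraries and 0.754 and 1.19 CPM in the DoxEtop libraries. The Control libraries had 3.02 and 5.6 CPM at those windows and the Dox libraries 1.74 and 1.34 CPM. Losses thus ended near the detection limit: DoxEtop replicate 1 held 0 or 1 counts at 334 of them (18.8%) and DoxEtop replicate 2 at 93 (5.25%), and neither Etop library did at any. Regions called higher had a median of 0.981 and 1.53 CPM in Etop and 6.03 and 5.76 CPM in DoxEtop, beside 3.50 and 2.95 CPM in Control and 4.06 and 4.45 CPM in Dox. The order of the other libraries was also tabulated, bearing in mind that these windows were chosen for a difference between Etop and DoxEtop, so extreme values of both groups are selected for. Both Etop libraries were below both Control libraries at 219 of the 243 gains (90.1%), against 21.1% of regions not called. Both DoxEtop libraries were above both Dox libraries at 136 of them (56.0%), against 17.3% of regions not called. All 4 induced libraries were above all 4 uninduced libraries at 96 of them (39.5%), against 8.29% of regions not called. At losses, both Etop libraries were above both Control libraries in 546 regions (30.8%, against 16.2% of regions not called), and both DoxEtop libraries were below both Dox libraries in 745 (42.0%, against 20.2%). There, all 4 induced libraries were below all 4 uninduced libraries in 1321 of 1773 regions (74.5%), against 11.6% of regions not called. Regions not called had medians of 2.83 to 3.24 CPM in all 8 libraries.

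The 2 replicates of a group did not share the losses evenly. Etop replicate 1 exceeded Etop replicate 2 at 74.1% of losses and at 23.5% of gains. DoxEtop replicate 1 exceeded DoxEtop replicate 2 at 26.2% of losses and at 54.3% of gains. Replicate 1 of each group was thus the more extreme library at most losses. Still, DoxEtop was more than 2-fold below Etop in all 4 pairs of libraries at 1657 losses (93.5%), and more than 2-fold above in all 4 pairs at 220 gains (90.5%). Over all regions, both DoxEtop libraries were below both Etop libraries at the best window in 39.7% and above them in 31.4%. Both the calls and these shares come from the same 4 libraries, so the shares describe the called regions and add no independent evidence.

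Among single regions, the smallest adjusted p belonged to a loss on chromosome 19 at 44506801 to 44507500. Its best window, which starts at 44506951, held 17.2 and 16.2 CPM in Etop and 0.754 and 2.18 CPM in DoxEtop. Control held 9.79 and 23.7 CPM there and Dox 4.06 and 2.00 CPM, so all 4 induced libraries lay below all 4 uninduced ones. The log2 fold change was -3.51 with a standard error of 0.45 and an adjusted p of 2.01e-05 in edgeR, and 7 of the 12 windows of the region were lower. About 100 kb away on the same chromosome, the region at 44405701 to 44406450 held 8.27 and 7.22 CPM in Etop and 0.188 and 0.199 CPM in DoxEtop. Only 1 count remained in each DoxEtop library, against 59 and 33 in Etop, and 8 of its 13 windows were lower. The pooled ratio was 40.6-fold, with a 95% interval of 10.9 to 341 that covers counting error only, and the adjusted p in edgeR was 4.08e-05. The region at 40314801 to 40315550 of chromosome 19 held 14.6 and 12.7 CPM in Etop and 0.942 and 1.19 CPM in DoxEtop, a log2 fold change of -3.66 with a standard error of 0.498. These 3 losses, and the best windows of the neighbouring pair on chromosome 17 described next, were the 5 named windows that still passed without DoxEtop replicate 1. The other 24 of 29 named windows did not pass without that library.

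A pair of neighbouring regions near the start of chromosome 17 showed losses and gains side by side. In the first, at 1617101 to 1618900, Etop had 123 and 34 counts and DoxEtop 0 and 3 at the window that starts at 1617201. That is a pooled ratio of 46.2-fold with a 95% counting interval of 15.5 to 227, and the adjusted p in edgeR was 2.01e-05. Toward the other end of the same region the order turned: at the window that starts at 1618651, Etop had 12 and 20 counts and DoxEtop 45 and 24, which did not pass the test. The second region, at 1619351 to 1620700, began with 2 windows that were higher in DoxEtop. The one starting at 1619401 had 11 and 12 counts in Etop and 49 and 25 in DoxEtop. It then held 4 lower windows, of which the one starting at 1619851 had 60 and 47 counts in Etop and 9 and 9 in DoxEtop. Its last 5 windows were at 0 counts in both DoxEtop libraries. At the window starting at 1620501, Etop had 107 and 16 counts, so DoxEtop was at least 15.9-fold lower, taking 3 counts per library as the floor. Dox had 1 count in each library there and Control 16 and 45. Across these 2 regions the order of the conditions thus turned 2 times, from lower to higher in DoxEtop and back. Of the 3184 regions with at least 1 called window, 43 held both lower and higher windows, which is 0.12% of all 35741 regions. The median width of these mixed regions was 1350 bp.

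The other losses with the smallest p lay on 5 more chromosomes. On chromosome 22, at 39919201 to 39919750, all 9 windows were lower, and the best held 10.8 and 7.22 CPM in Etop and 0.188 and 0.397 CPM in DoxEtop, a pooled ratio of 32.4-fold (95% counting interval 10.8 to 160). On chromosome 15, at 41139651 to 41139900, all 3 windows were lower, and Etop held 10.5 and 7.0 CPM against 0.377 and 0.397 CPM in DoxEtop. This region stood out from the others because Control (1.93 and 3.68 CPM) and Dox (2.71 and 1.34 CPM) overlapped there. The 3-window region on chromosome X at 128109751 to 128110000 fell from 8.13 and 8.75 CPM to 0.188 and 0.397 CPM, a pooled ratio of 28.9-fold (9.59 to 142). The single window of chromosome 16 at 79692351 to 79692500 fell from 5.89 and 7.44 CPM to 0.188 and 0.199 CPM, a pooled ratio of 33.6-fold (8.98 to 282). The most open of the named losses was on chromosome 6 at 119558451 to 119558850, where Etop held 78.4 and 104 CPM and DoxEtop 11.5 and 21.1 CPM. Control replicate 2 had 102 CPM there but Control replicate 1 only 12.7 CPM, close to the 8.51 and 10.7 CPM of the Dox libraries. All 6 of its windows were lower, with a log2 fold change of -2.48 (standard error 0.38).

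Gains were smaller in fold and took a smaller part of their regions, with a median of 25% of windows changed against 50% in losses. The median number of changed windows was 2 in both, but gains had a median of 9 windows and losses 5. The gain with the smallest p was on chromosome 1 at 25572951 to 25574550, where the window starting at 25574301 held 0.421 and 1.09 CPM in Etop and 9.80 and 6.16 CPM in DoxEtop. Its log2 fold change was 3.47 with a standard error of 0.579 and an adjusted p of 0.000359 in edgeR, and 3 of the 29 windows of the region were higher. Control held 3.99 and 3.83 CPM there and Dox 2.71 and 3.56 CPM, between the 2 etoposide groups. On chromosome 6 at 142622601 to 142623450, Etop held 1.26 and 1.97 CPM and DoxEtop 10.6 and 7.15 CPM. On chromosome X at 133118901 to 133120200, 1 count in each Etop library stood against 16 and 26 in DoxEtop, a pooled ratio of 23.8-fold with a 95% counting interval of 6.18 to 203. On chromosome 1 at 37980001 to 37980700, Etop held 2.52 and 3.06 CPM and DoxEtop 10.2 and 11.9 CPM, with 6.16 to 7.13 CPM in the other 4 libraries. The 6 remaining gains of this rank, on chromosomes 2, 5 and 10, had log2 fold changes of 2.04 to 3.14, and at each the Etop libraries were the 2 lowest of the 8. Since these windows were chosen for Etop below DoxEtop, low values in Etop are selected for, and its place below Control and Dox is a description only.

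The regions with the most changed windows gave the width of the largest changes. On chromosome 19, 13 of the 73 windows at 39339751 to 39343550 were lower, and the best held 11.4 and 11.4 CPM in Etop and 0.565 and 1.19 CPM in DoxEtop. Likewise 13 of 69 windows were lower at 36246701 to 36250400 of the same chromosome, 12 of 51 at 50178901 to 50181950 and 12 of 61 at 17447051 to 17450450. At 41221451 to 41222100 all 11 windows were lower, from 12.5 and 9.41 CPM to 2.26 and 2.38 CPM. All 5 of these regions were on chromosome 19. Among gains, 6 of 11 windows were higher on chromosome 1 at 85513901 to 85514550 and all 5 windows on chromosome 18 at 77724451 to 77724800, where Etop held 0.561 and 1.53 CPM and DoxEtop 5.65 and 5.96 CPM. At 33554401 to 33556800 of chromosome 19, 6 of 46 windows were higher, but the region as a whole had an adjusted p of 0.0667 in edgeR and was not called.

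**Figure D1:**
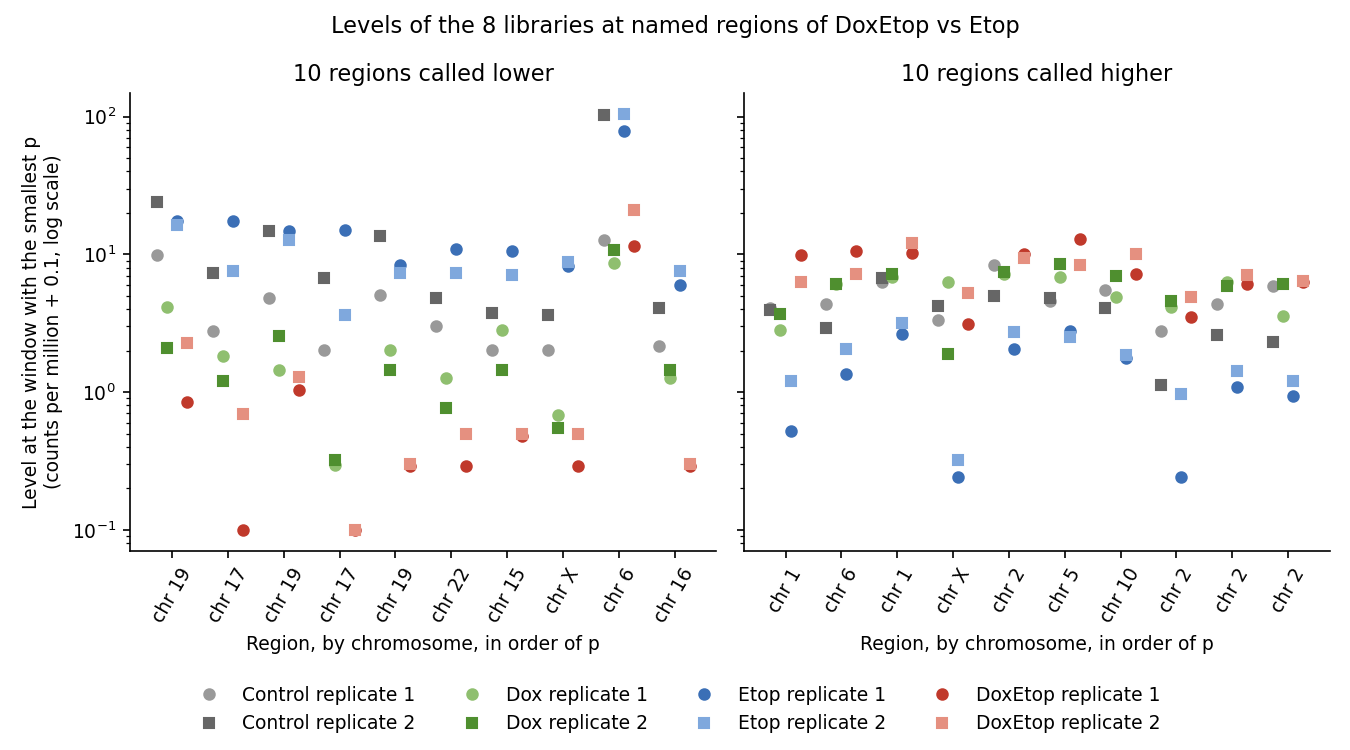
Level of each of the 8 libraries (CPM plus 0.1, log axis) at the best window of the 10 losses and 10 gains with the smallest p, in order of p and labelled by chromosome. At losses both DoxEtop libraries lie below both Etop libraries, by 78.4 and 104 against 11.5 and 21.1 CPM at the most open one. At gains the 2 Etop libraries are the lowest of the 8.

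Losses were spread unevenly over chromosomes. All 23 chromosomes with at least 100 regions had more losses than gains, but the share of regions called lower ran from 0.952% on chromosome 13 to 7.64% on chromosome 19. Chromosome 19 held 413 of its 5407 regions called lower, which is 23.3% of all losses from 15.1% of all regions, and 23 called higher (0.425%). Chromosome 10 followed with 133 of 1954 regions lower (6.81%), then chromosome 15 with 113 of 1676 (6.74%) and chromosome 1 with 279 of 4443 (6.28%). At the other end were chromosome 4 (1.27%), chromosome 9 (1.56%), chromosome 18 (1.57%) and chromosome 8 (1.63%). The share called higher ranged less, from 0.401% to 1.53%, and was highest on chromosome 20, where 9 regions were higher and 12 of 587 were lower. Chromosomes with more regions per Mb had larger shares of losses, with a Spearman rho of 0.762 over 23 chromosomes, and -0.303 for gains. These points share the same 4 libraries, so both are descriptions without a test. The density itself depends on which windows are in the table, each with at least 111 counts summed over the 8 libraries. It was therefore not measured separately from the levels compared. The density ran from 3.29 regions per Mb on chromosome 4 to 91.9 on chromosome 19.

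**Figure D2:**
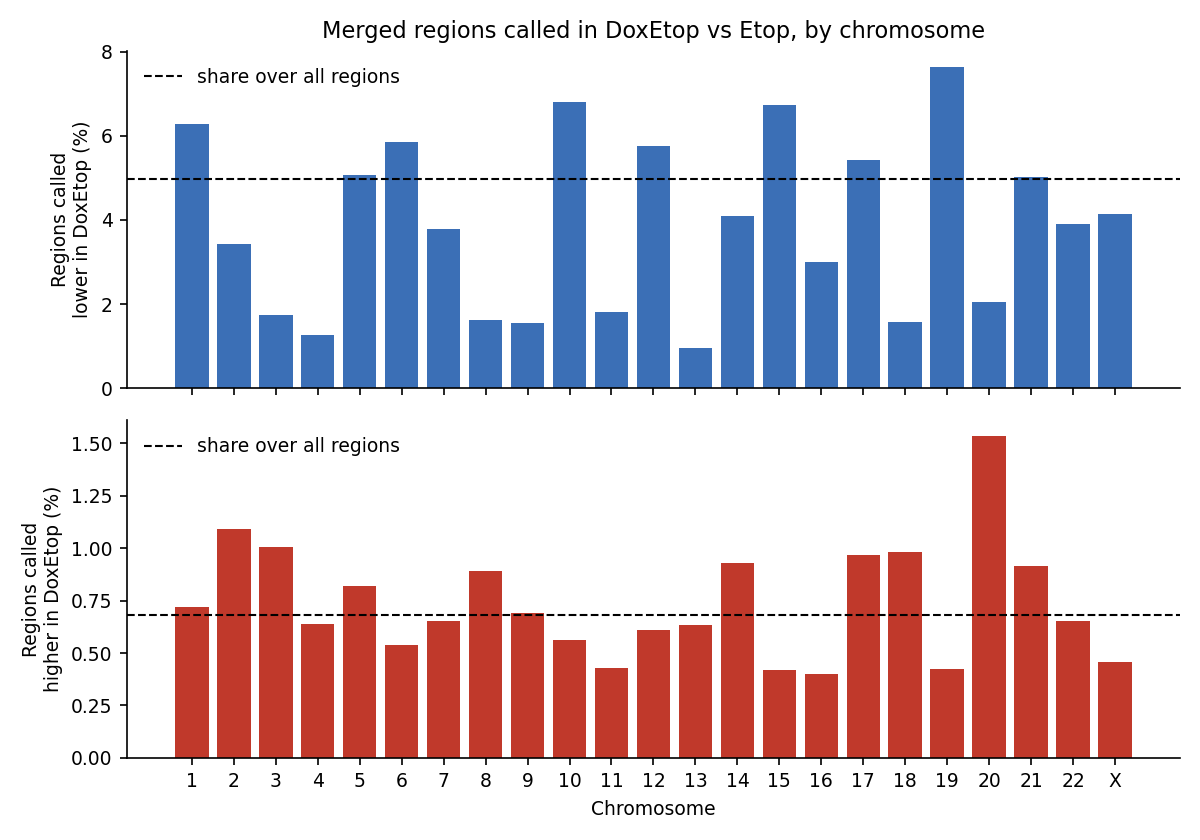
Share of merged regions called lower (upper bars) and higher (lower bars) in DoxEtop against Etop, in percent of the regions of each chromosome. Dashed lines are the shares over all regions, 4.96% and 0.68%. Chromosome 19 has the tallest bar for losses, 7.64%, and chromosome 20 for gains, 1.53%.

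The same pattern was present in the typical region, called or not. For each region, the log2 level of a library (mean window CPM plus 0.1) was set against the mean of the 4 etoposide libraries, and medians were taken by chromosome. On chromosome 19 the medians were 0.143 and 0.147 in Etop and -0.138 and -0.062 in DoxEtop. On chromosome 8 the order was opposite, with -0.110 and -0.049 in Etop and 0.169 and 0.089 in DoxEtop. Both DoxEtop libraries were below both Etop libraries on 10 chromosomes (1, 5, 6, 10, 12, 15, 17, 19, 22 and X) and above them on 11. With TMM factors or DESeq2 size factors in place of the column totals, a choice made after seeing the data, the 10 stayed below. Of the 11, 8 stayed above (3, 4, 8, 9, 11, 13, 18 and 20), while the libraries overlapped on chromosomes 2, 7 and 16. Levels here are relative to the column total, so a chromosome can be higher only as others are lower. With 2 libraries against 2, an exact permutation test can reach no p below 0.333, and none was made.

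**Figure D3:**
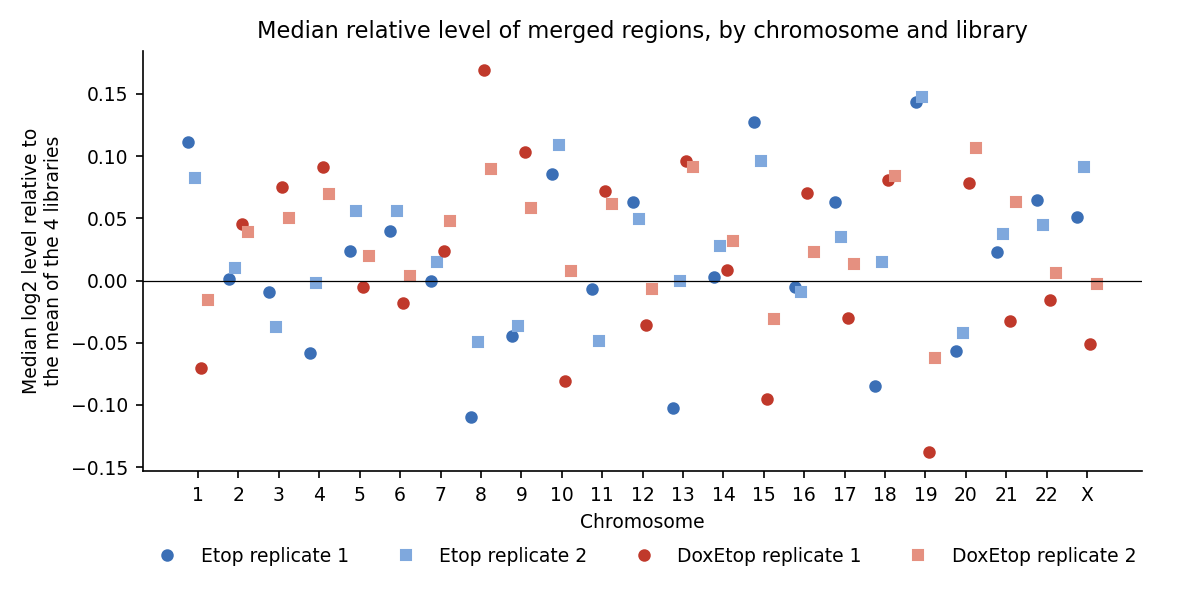
Median log2 level of merged regions relative to the mean of the 4 etoposide libraries, by chromosome, with 1 point per library. Chromosome 19 has Etop at 0.143 and 0.147 and DoxEtop at -0.138 and -0.062, and chromosome 8 shows the opposite order.

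On chromosome 19 most losses lay between 30 and 50 Mb. This stretch from 30 to 50 Mb, outlined after seeing the data, held 3631 regions (10.2% of all), of which 330 were lower (9.09%) and 13 were higher (0.358%). These were 18.6% of all losses. On the rest of chromosome 19, 83 of 1776 regions were lower (4.67%), near the 4.48% of the other chromosomes, but that rest was uneven. From 0 to 20 Mb the shares by 5 Mb segment were 2.55% to 4.03%, and from 55 to 60 Mb 22 of 191 regions were lower (11.5%), a larger share than in any 5 Mb segment of the stretch (6.32% to 10.4%). The median relative level in the stretch was 0.208 and 0.226 in Etop and -0.215 and -0.110 in DoxEtop. Among the cells without etoposide it was -0.033 and 0.287 in Control and -0.057 and -0.095 in Dox, so Control replicate 1 lay beside the Dox libraries. Regions of this stretch were narrower than elsewhere, with 52.8% at 300 bp or less against 41.5% on other chromosomes. Within it the wider regions were lower more often: 209 of 1713 regions over 300 bp (12.2%) against 121 of 1918 narrower ones (6.31%). On other chromosomes the shares were 4.24% and 4.83%.

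By 1 Mb segment, the 5 with the most losses were all in this stretch. The segment from 36 to 37 Mb had 51 of 384 regions lower (13.3%), with log2 fold changes from -5.94 to -1.31. All 51 were below 0 in Dox against Control as well, and 10 of them were called there. This was near the shares over all 1773 losses, of which 96.7% were below 0 and 21.0% were called there. The segment from 39 to 40 Mb had 43 of 466 lower (9.23%), from 41 Mb 26 of 214 (12.2%), from 44 Mb 24 of 196 (12.2%) and from 38 Mb 22 of 242 (9.09%). Outside chromosome 19, the first was the segment of chromosome 1 from 226 Mb, with 15 of 135 regions lower (11.1%). Among segments with 20 or more regions, the largest shares were 6 of 20 (30%) on chromosome 19 from 57 Mb, 14 of 58 (24.1%) on chromosome 1 from 234 Mb and 7 of 31 (22.6%) on chromosome 6 from 32 Mb. None of those 3 segments held a gain, but gains were only 0.68% of all regions. Losses were nonetheless dispersed: 714 of 2304 segments held at least 1, and 350 of the 478 segments with 20 or more regions had more losses than gains, against 33 with more gains.

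Gains were scattered over 218 segments, and only 4 segments held 3 or more. The segment of chromosome 20 from 43 to 44 Mb held 4 gains among 16 regions (25%). At 43160301 to 43160650 the counts were 4 and 6 in Etop and 22 and 37 in DoxEtop, with a log2 fold change of 2.68. The other gains there lay at 43017401, 43104301 and 43538851, with log2 fold changes of 2.32, 1.78 and 2.59. The segment of chromosome 1 from 37 Mb held 3 gains among 13 regions, of which 2 lay about 300 bp apart: 37979401 to 37979700, with 10 and 7 counts in Etop and 37 and 22 in DoxEtop, and the named region at 37980001. The segment of chromosome 8 from 145 Mb held 3 gains and no loss among 43 regions, and that of chromosome 19 from 50 Mb held 3 gains and 12 losses among 131. At 50015751 on chromosome 19 the Etop libraries had 1 and 15 counts and DoxEtop 38 and 34, so that gain was uneven between the Etop libraries. Another 16 segments shared the next place with 2 gains each.

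Losses neighboured losses. In 440 cases the region after a loss began within 1 kb of it, and 49 of these next regions were losses themselves (11.1%), against 4.24% over all such pairs. Within 10 kb the share was 95 of 940 (10.1%) against 5.18%, and within 100 kb 140 of 1582 (8.85%) against 5.24%. Of the regions that followed a gain within 10 kb, 1 of 112 was a gain (0.893%, against 0.653% over all pairs). Neighbouring regions share chromatin and libraries, so these shares are descriptions. The shares were not taken without chromosome 19, where 7.64% of regions were losses. Adjacency was thus not told apart from a larger share of losses over a long stretch. Consecutive losses formed 136 runs of 2 or more regions (287 regions), of which 15 had 3 regions, the longest length. Gains formed 2 runs, both of 2 regions. The tightest run of 3 was on chromosome 6 at 32095501 to 32098300, a span of 2800 bp. Its regions had 64 and 22, 35 and 14, and 32 and 32 counts in Etop, against 2 and 6, 5 and 2, and 4 and 8 in DoxEtop. Their log2 fold changes were -3.14, -2.55 and -2.26. The widest run of 3 spanned 149000 bp on chromosome 1 at 234462251 to 234611250, with log2 fold changes of -2.75, -3.76 and -3.00. Chromosome 19 held 6 of the 15 runs, among them 36601701 to 36607950 and 39900001 to 39905150.

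The share of losses was larger where more regions lay nearby. The number of regions nearby depends on which windows are in the table, so it was not measured separately from the levels compared. It was 2.55% in regions with 0 to 4 others within 500 kb on either side, 4.07% with 10 to 19, 5.65% with 40 to 79 and 6.62% with 80 or more. Without chromosome 19 the last class had 166 of 3430 regions lower (4.84%), so the top of this order rested on that chromosome, whereas the first 5 classes had shares of 2.55% to 5.62% without it. The share of gains did not follow this order: it was 0.572% in the sparsest class, 1.01% with 10 to 19 others and 0.373% with 80 or more. In the sparsest class the median relative levels were -0.047 and 0.011 in Etop and 0.051 and 0.067 in DoxEtop. In the densest they were 0.135 and 0.116 in Etop and -0.099 and -0.053 in DoxEtop. Under the 3 scalings tried, both DoxEtop libraries stayed above both Etop libraries in the 2 sparsest classes and below them in the 3 densest. With 10 to 19 others they overlapped under each, and the mean difference between the groups changed sign, from 0.021 with column totals to -0.007 with TMM factors and -0.011 with DESeq2 factors.

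**Figure D4:**
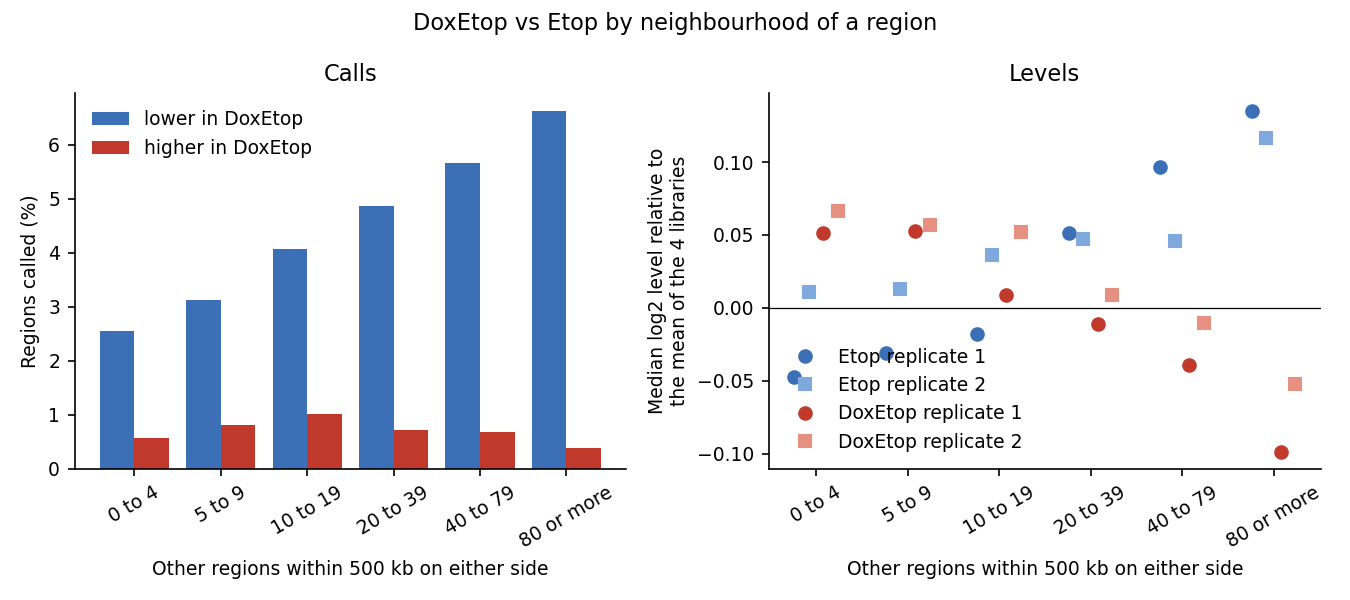
Left, share of merged regions called lower and higher in DoxEtop by the number of other regions within 500 kb on either side, in percent of the regions of each class. Right, median log2 level relative to the mean of the 4 etoposide libraries, with 1 point per library. The share of losses runs from 2.55% to 6.62%, and the Etop and DoxEtop points change places between the sparsest and the densest class.

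Losses and gains differed in width. Regions up to 300 bp wide were lower in 759 of 15189 cases (5.0%) and higher in 50 (0.329%), and regions over 500 and up to 1000 bp in 4.65% and 1.26%. The widest regions, over 2000 bp, were lower in 36 of 246 cases (14.6%), but a region with more windows also has more chances to hold a changed one. By window the share of losses was highest in the narrowest regions, 3.79%, against 2.22% overall. Called losses and gains had median widths of 350 and 550 bp and a median of 2 changed windows each. Every window was lower in 483 losses (27.2%), and every window was higher in 16 gains (6.58%). In the narrowest regions the median relative levels were 0.214 and 0.160 in Etop and -0.158 and -0.045 in DoxEtop, and in those over 1000 and up to 2000 bp -0.090 and -0.038 against 0.104 and 0.051. Every window held at least 111 counts summed over the 8 libraries, and Etop totals summed to 11702924 against 10339911 in DoxEtop. The part of this minimum in the tilt of narrow regions was not tested. Over 4 classes of equal size by level, from lowest to highest, the share of losses was 2.82%, 4.80%, 5.50% and 6.73%. That of gains was 0.526%, 0.436%, 0.627% and 1.13%. Regions of the highest class also held more windows, 111481 against 26261 in the lowest, and so had more chances of a call. By window the share of losses was 1.71%, 2.21%, 2.17% and 2.38%, and that of gains 0.282%, 0.353%, 0.471% and 0.592%. Losses made up 84.3% of the calls in the lowest class and 85.6% in the highest.

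Within wide regions, loss was not limited to the summit. Around the highest window of regions over 500 bp, 584 losses had a mean of 8.84 and 7.88 CPM in Etop and 5.76 and 6.16 CPM in DoxEtop at the summit. At 500 bp to the left, the 162 of these losses that had a window there held 5.27 and 5.16 CPM in Etop and 3.37 and 3.66 CPM in DoxEtop. At 128 gains the summit means were 4.48 and 4.68 CPM in Etop and 7.81 and 7.35 CPM in DoxEtop. The 10094 regions not called differed slightly in the direction of the gains, with 5.54 and 5.56 CPM in Etop and 6.26 and 6.15 CPM in DoxEtop. The best window lay within 100 bp of the summit in 33.6% of wide losses and 43.8% of wide gains, against 33.0% of wide regions not called. In most wide regions, called or not, the window with the smallest p therefore lay on a flank.

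**Figure D5:**
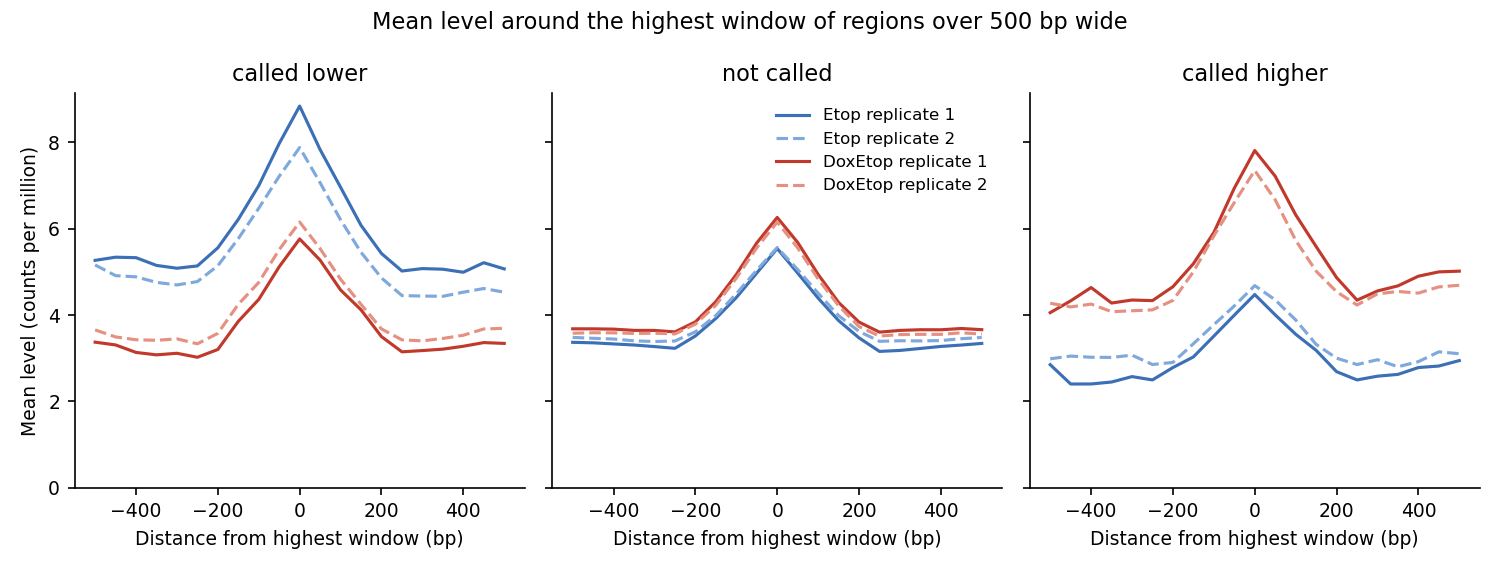
Mean level (CPM) of the 4 etoposide libraries by distance from the highest window, for regions over 500 bp called lower, not called and called higher in DoxEtop. At losses Etop peaks at 8.84 and 7.88 and DoxEtop at 5.76 and 6.16 CPM. At gains the order is opposite. Fewer regions have a window at larger distances, so the flanks average a subset of them.

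Dox against Control shares no library with this comparison and gives the same contrast without etoposide. There, 589 regions were lower (1.65%) and 6 were higher (0.0168%), and 0.766% of windows were lower and 0.0172% higher. At the losses of DoxEtop against Etop, the log2 fold change of Dox against Control was below 0 in 1714 of 1773 regions (96.7%), with a median of -1.46, against 54.0% and -0.08 over all regions. Of these losses 372 (21.0%) were also called in Dox against Control, which is 63.2% of the 589 called there, and none was called in the opposite direction. The Dox libraries did not overlap the Control libraries in the direction of loss at 1388 of them (78.3%), against 27.6% over all regions at the same windows. They did so in the direction of gain at 106 of the 243 gains (43.6%), against 20.4% over all regions. Control replicate 1 was below Control replicate 2 at 89.7% of these losses, against 53.6% of regions not called. When Control replicate 2 was left out, the fit called 1313 losses, and 89.5% of them were below 0 in Dox against Control. At the gains, Dox against Control had the same sign in 194 of 243 regions (79.8%) with a median of 0.33, none was called there and 1 was called lower. The test of the difference between the contrasts, the interaction in edgeR, called 0 of 256141 windows, with 10557 at an unadjusted p under 0.05 (4.12%). DESeq2 and limma-voom called 0 as well, with 6020 and 8538 windows at that unadjusted p. A difference in the response to induction between cells with and without etoposide was thus not detected with 2 libraries per group.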

How the data were processed

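FAIRE-seq libraries were made with a TruSeq ChIP kit and sequenced as 100 bp paired reads, each 2 times, per the labels' protocols. Trim Galore, Bowtie2, Bowtie and hg19 are named in the submitters' processing notes. How fragments were counted, windows chosen and input used is not given in the sources used here. The authors deposited raw counts per window, with a summed minimum of 111 and a median of 160.

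Counts scaled to column totals were fitted per window in edgeR 4.0.16 (R 4.3.3, glmQLFit and glmQLFTest, two-sided). The fit took all 8 libraries with a mean for each group, which left 4 residual degrees of freedom. The common biological coefficient of variation was 26.4%. Regions were called by Simes' p, adjusted over 35741 regions. A fragment can fall into more than 1 window, so called windows are not independent of each other. Limma 3.58.1 and DESeq2 1.42.0, other scalings, a filter on low levels, the replicate block, a gap of 500 bp, 1 count per region and fits without each library were alternatives. The procedure was tested on simulated counts. Fold intervals are exact (Clopper-Pearson, 95%) and cover counting error only.

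Replicates were kept apart, since chi-square over degrees of freedom was 1.85 to 3.10 between them, above sampling noise. The members and lists were chosen with earlier results of these data known. Named regions are the 10 losses and 10 gains with the smallest p whose groups do not overlap, the 5 with the most changed windows in each direction, the 5 segments of 1 Mb with the most losses and gains, and the longest runs. Runs beyond the tightest and widest, and segments chosen by share, were picked after their values were seen. Segments stand in for chromosome bands, and the prepared gene lists were not tested, because no annotation of hg19 was used here.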

Additional observations from a re-analysis of the deposited data

Results flagged for a closer look

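At 1 of the 29 named windows, the libraries were ordered in opposite directions with and without etoposide. At the window of chromosome 1 that starts at 25574301, the log2 fold change was 3.47 in DoxEtop against Etop and -0.32 in Dox against Control. The 2 DoxEtop libraries (9.80 and 6.16 CPM) were above both Etop libraries (0.421 and 1.09 CPM), whereas both Dox libraries (2.71 and 3.56 CPM) were below both Control libraries (3.99 and 3.83 CPM). Dox against Control did not pass the test there, with an adjusted p of 0.857 in edgeR. Both Dox libraries lay below both Control libraries at 11 of the 243 gains (4.53%), against 27.6% of all regions. They lay above both at 14 of the 1773 losses (0.790%), against 20.4% of all regions. The window on chromosome 1 was itself named as the gain with the smallest p. The interaction in edgeR had an unadjusted p of 6.68e-06 at this window and an adjusted p of 0.961 over all windows, so the difference did not pass the correction.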

How the results depend on the processing

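The counts of calls depended on the test and on single libraries more than on the scaling. Windows called numbered 4589 (3503 lower) when only windows at or above the median level were tested, 2255 (2062 lower) by DESeq2, 72 (41 lower) by limma-voom and 4531 (4045 lower) with only the 4 etoposide libraries, and 17 to 15688 when 1 library was left out. Regions called numbered 660 (627 lower) by DESeq2 and 1, a gain, by limma-voom, and 2 to 4624 without 1 library. TMM, DESeq2 size factors and loess offsets gave 1950 to 2136 regions. Of all losses, chromosome 19 held 26.2% by DESeq2 and 0 to 27.9% without 1 library. Fits without 1 library called as few as 2 regions, too few for a share, which also limits the next range across them. The share of losses below 0 in Dox against Control was 97.5% with the level filter, 98.7% by DESeq2, 97.5% with the replicate block and 89.5% to 100% without 1 library. The interaction called 4 windows without Control replicate 2 and 0 in every other fit run. The causes were not tested. In 460 comparisons, each of 1 named window in 1 alternative fit, no direction reversed, but 65 lost the call. Most of these were by limma-voom (27 of 29 windows) or without DoxEtop replicate 1. The rest were by DESeq2 (2 windows), without Etop replicate 1 or without DoxEtop replicate 2. The level filter left 25 of the 29 windows.

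Same-numbered libraries did not deviate together (r from -0.072 to 0.125 over 6 pairs of groups, and -0.035 between Etop and DoxEtop), so the numbers were not taken as pairs. With the replicate block, 6169 windows (5195 lower) and 1763 regions (1589 lower) were called. Where a fit left 1 library in a group, that library was assumed to vary like the other groups. Few counts at the windows limited precision: the median count per window was 16 to 29, depending on the library.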
